A study of Mus musculus with 10 samples.

Results

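The genes described here encode the protein subunits of the mitochondrial ribosome, taken as every protein-coding mouse gene with a symbol of the form Mrpl or Mrps and a number. There were 78 such genes among the 53700 gene identifiers counted, 49 named Mrpl and 29 named Mrps, and they lie on 17 chromosomes. By their place in the assembled ribosome, 51 belong to the large subunit, 26 to the small subunit and 1, Mrps36, to neither. A total of more than 10 reads over all libraries was found for 77 of them, and these 77 were tested. The remaining one, Mrpl53, had 9 reads in all, 8 of them in 5XFAD;Neu cKO replicate 5 and 1 in 5XFAD replicate 4.

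Bulk RNA of the cortex was read from 10 female mice aged 4 months, 5 labelled 5XFAD and 5 labelled 5XFAD;Neu cKO. All 10 carried the 5XFAD transgenes, a mouse model of amyloid deposition. The libraries labelled 5XFAD;Neu cKO come from mice in which Camk2a-Cre removes floxed Idol from neurons, and those labelled 5XFAD from littermates labelled wild type for this deletion. Camk2a drives Cre in forebrain excitatory neurons, whereas the RNA came from all cells of the cortex, so fewer cells of a type and less RNA per cell cannot be told apart. Idol is listed under its other symbol, Mylip, an E3 ubiquitin ligase for receptors of the LDL receptor family. Its level was 11.2 ± 2.27 CPM (counts scaled to the library size) in the libraries labelled 5XFAD and 14.8 ± 4.90 in those labelled 5XFAD;Neu cKO (SD, n = 5 each), and the groups overlapped (log2 fold change 0.39, edgeR adjusted p = 0.777). Mylip counts were thus not lower where the labels place the deletion. Which part of the transcript the deletion removes relative to the counted 3′ end was not analysed here. These counts alone therefore do not show whether Idol was removed. The group names below are those of the labels.

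Mitochondria keep a ribosome of their own, which translates the few proteins encoded by the mitochondrial genome, all of them subunits of the respiratory chain and the ATP synthase. Its ribosomal RNAs are transcribed from mitochondrial DNA, whereas each of its proteins is encoded in the nucleus, made in the cytosol and imported. The small subunit binds the mRNA and checks the codon, and the large subunit forms the peptide bond and releases the new chain at the inner membrane. Some of its proteins have relatives in the bacterial ribosome and others are found only in mitochondria. Neurons depend on this machinery because synaptic activity draws heavily on respiration.

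Some of these genes start beside another protein-coding gene that runs the other way, with the annotated starts at most 1000 bases apart. That is 14 of 78 genes, or 17.9%, against 5.06% of the 21626 protein-coding genes in the files. 3 of the intervals between such starts are printed here from the GRCm39 genome, because each joins the gene to a partner whose protein also acts in mitochondria. They are given 5′ to 3′ on the minus strand, from one annotated start to the other, with the core of an ETS factor site (CCGGAAG) or a CCAAT box in capitals. The first lies between the starts of Mrpl46 and Mrps11 at chr7:78432837-78432867, the second between Mrps12 and Sars2, the mitochondrial seryl-tRNA synthetase, at chr7:28441268-28441397, and the third between Mrpl43 and Twnk, the mitochondrial DNA helicase, at chr19:44994881-44994937.
Mrpl46 and Mrps11: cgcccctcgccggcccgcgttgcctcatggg
Mrps12 and Sars2: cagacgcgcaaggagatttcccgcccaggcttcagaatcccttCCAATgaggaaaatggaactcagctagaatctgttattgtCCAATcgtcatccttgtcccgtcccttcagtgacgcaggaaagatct
Mrpl43 and Twnk: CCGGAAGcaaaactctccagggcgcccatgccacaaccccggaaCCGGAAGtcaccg

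The ETS core occurs at both ends of the interval shared by Mrpl43 and Twnk, and a pair of CCAAT boxes lies between Mrps12 and Sars2. Over windows from 250 bases before to 50 bases after each annotated start, searched on both strands, the ETS core was present in 24 of the 78 genes (30.8%) and in 10.3% of all 21626 protein-coding genes. The core of an NRF1 site (CATGCGC) was present in 7 of them (8.97%, against 4.96%) and the core of a YY1 site (AAGATGG) in 9 (11.5%, against 5.72%). The CCAAT box was present in 27 (34.6%, against 39.9%). These are letter matches with no test, and no binding was measured.

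The levels of the 77 tested genes lay close together. Each transcript gives reads near its 3′ end in this assay, so CPM were compared between genes without dividing by length. A mean over all 10 libraries of 10 to 50 CPM was found for 67 genes, of less than 10 CPM for 9 and of more than 50 CPM for 1. The highest, Mrps5, of the small subunit and related to bacterial S5, stood at 50.8 ± 5.90 CPM (SD, n = 10). It was followed by Mrpl30 at 44.5 ± 5.81, Mrpl48 at 44.1 ± 7.89, Mrps25 at 40.0 ± 2.68 and Mrpl20 at 37.5 ± 6.53 CPM. The step from Mrps5 to Mrpl30 was slightly larger than the SD of either gene, and each later step was smaller than the larger of the 2 SDs. The highest level was 4.91 times the tenth lowest and 50.6 times the lowest. The median level was 20.8 CPM for the large subunit genes and 18.4 CPM for those of the small subunit.

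**Figure D1:**
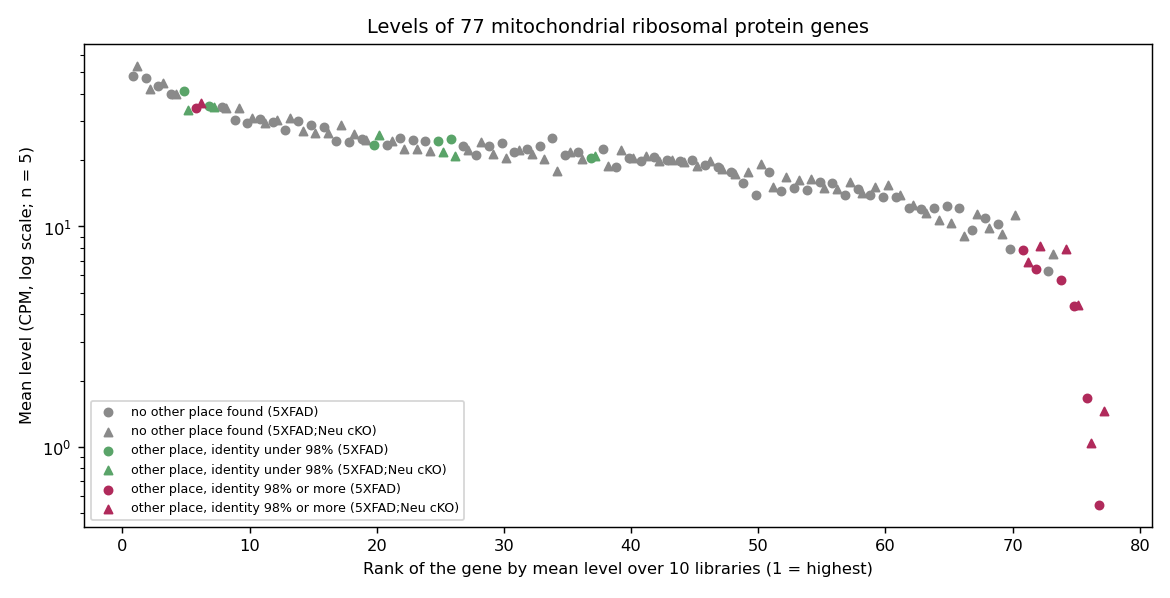
Mean level of each of 77 genes in CPM (log scale, n = 5 libraries per group) against its rank by the mean over all 10 libraries, with circles for 5XFAD and triangles for 5XFAD;Neu cKO. Colours mark genes whose transcript end has another close match in the genome; 6 of the 7 genes with a match of 98% identity or more are among the 9 genes under 10 CPM.

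Mrps36 at 1.00 CPM, Mrps18b at 1.35 and Mrpl23 at 4.38 were the 3 lowest. The last 300 bases of the canonical transcript were aligned to the genome, and a stretch of at least 100 bases with at least 90% identity elsewhere was found for 13 of the 77 genes. Reads that align to several places were not counted in these files. The 3 lowest genes all had such a second place, at 99.3% identity (8 places) for Mrps36 and at 99.7% (1 place each) for Mrps18b and Mrpl23. At an identity of 98% or more, a split chosen after the values were seen, there were 7 genes, of which 6 were under 10 CPM, with a median of 6.82 CPM. The other 6 genes with a second place had levels from 20.6 to 37.5 CPM, and of the 64 genes with none, 3 were under 10 CPM (Mrpl40, Mrpl44 and Mrps28). The part that unplaced reads have in the low levels was not tested. A neighbouring gene on the same strand overlaps at least part of the last 500 bases of 5 of the 78 genes. One on the other strand does so for 32, and the strand setting of the counting is not given in the sources used here.

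The summed level of the 77 genes did not separate the groups. It ranged from 1490 to 1672 CPM with a median of 1617 in the 5XFAD libraries and from 1547 to 1655 CPM with a median of 1564 in the 5XFAD;Neu cKO libraries. The means were 1592 ± 71.8 and 1583 ± 43.7 CPM (SD, n = 5 each). Large subunit genes summed to 1080 ± 49.6 CPM in 5XFAD and 1071 ± 38.8 CPM in 5XFAD;Neu cKO, and small subunit genes to 512 ± 27.8 and 511 ± 14.0 CPM. The ratio of small to large subunit sums was between 0.456 and 0.504 in 5XFAD and between 0.456 and 0.497 in 5XFAD;Neu cKO. Between 6612 and 12003 reads per library fell on these genes, with a median of 111 reads per gene and library.

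**Figure D2:**
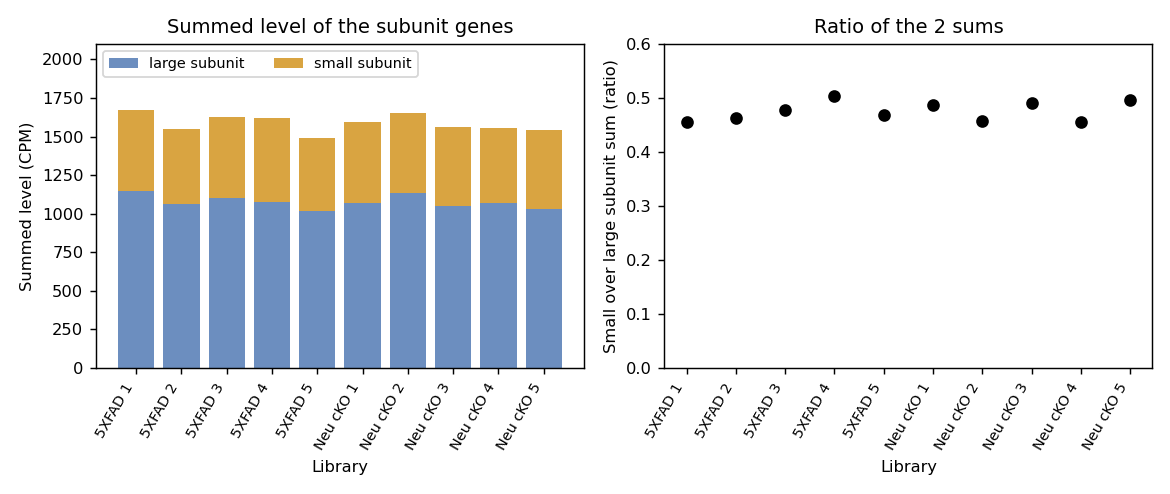
Left, summed CPM of 50 large and 26 small subunit genes in each of the 10 libraries; right, the small subunit sum over the large subunit sum in the same libraries. The totals run from 1490 to 1672 CPM and the ratios from 0.456 to 0.504, and the groups overlap in both.

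None of the 77 Mrpl and Mrps genes passed the test between the groups. At an adjusted p under 0.05, edgeR called 0 of the 77, where it called 42 of all 19268 genes tested (0.218%). DESeq2 called 0, where it called 73 of all genes (0.379%). It gave no adjusted p to many of the 77, so those could not be called by it. Among them were Mrps18c, Mrps18a, Mrps18b, Mrpl10, Mrpl14, Mrpl23, Mrpl44, Mrpl58, Mrps11, Mrps21, Mrps28, Mrps30 and Mrps36. The share of 0.379% is over all genes tested, with or without an adjusted p. At an unadjusted p under 0.05 there were 2 of 77 (2.60%) by either tool. Of all 19268 genes there were 1532 (7.95%) by edgeR and 1362 by DESeq2. The exact permutation p was under 0.05 for 4 of 77 (5.19%), against 6.66% of all genes. In none of the 77 were the 5 libraries of one group all above the 5 of the other, which was the case in 1.30% of all genes. The log2 fold change of 5XFAD;Neu cKO against 5XFAD was above 0 for 35 genes and below 0 for 42, with a median of -0.0088 against -0.00056 over all genes.

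The interval of the fold change bounds how large a difference these libraries could hide. The 95% interval lay within a 2-fold change in either direction for 73 of the 77 genes, the exceptions being Mrpl44, Mrps21, Mrps18b and Mrps36, and within a 1.41-fold change for 35 genes. The standard error of the log2 fold change ranged from 0.13 to 0.98 with a median of 0.19. These intervals are not adjusted for the number of genes, and only those of Mrps18c and Mrps18a leave out 0. A difference of any size within a gene's interval remained compatible with these libraries.

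**Figure D3:**
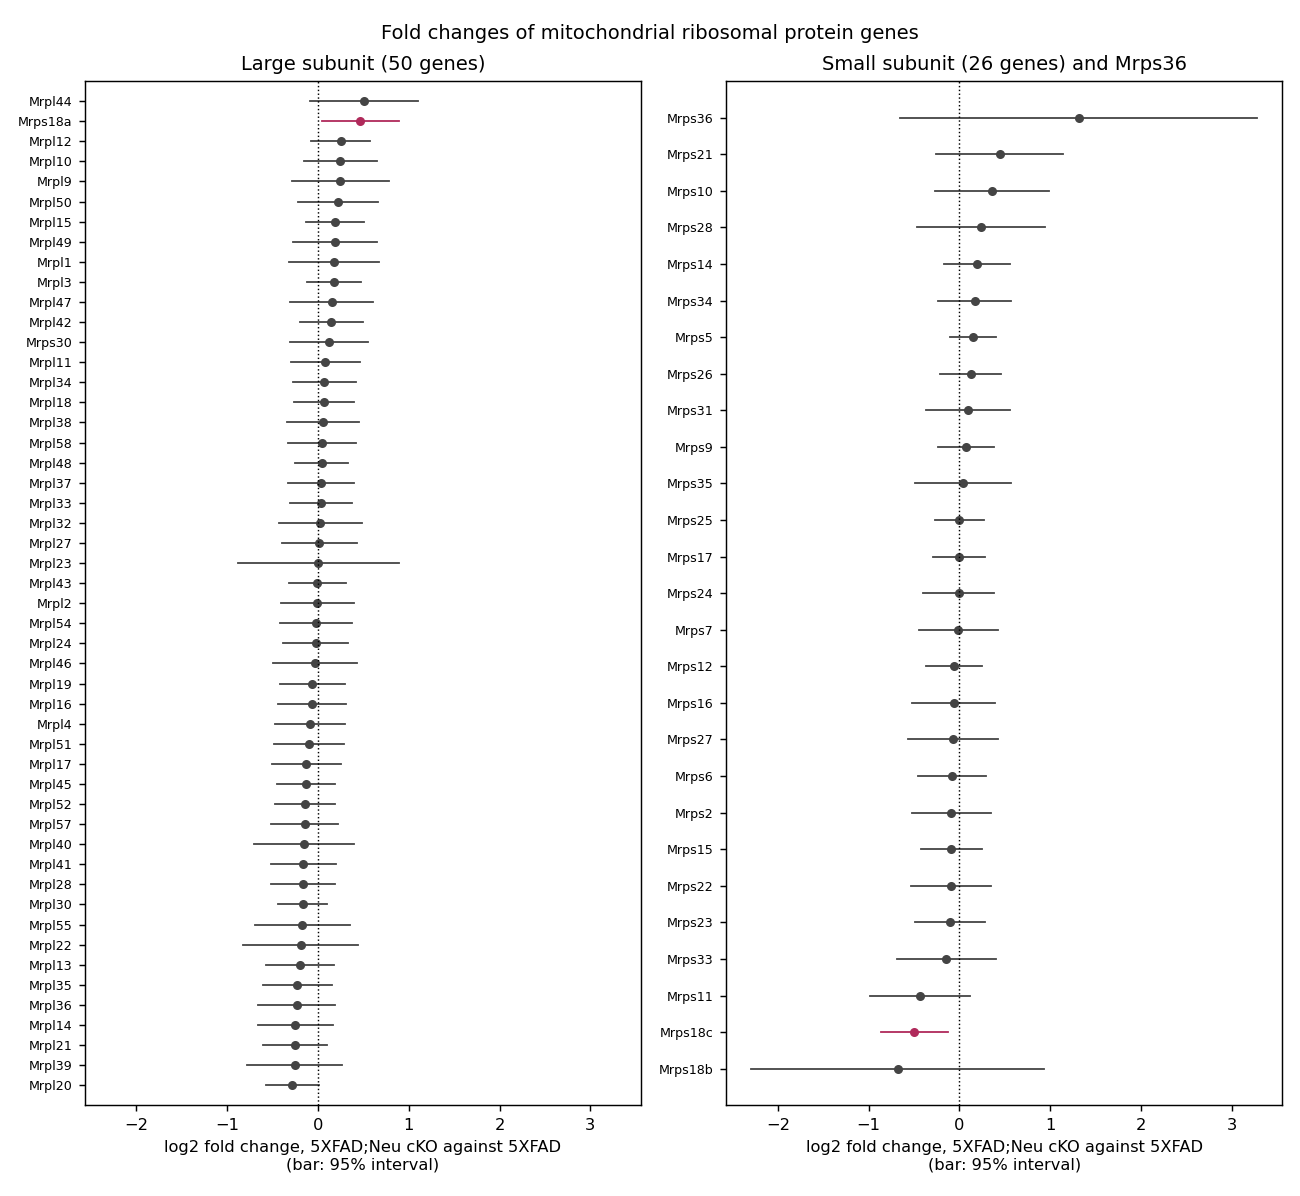
Log2 fold change of 5XFAD;Neu cKO against 5XFAD for 50 large subunit genes (left) and for 26 small subunit genes with Mrps36 (right), with 95% intervals. Mrps18a and Mrps18c, with an unadjusted p under 0.05, are in red, and neither passes after adjustment over all genes.

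Both subunits and the classes within them gave medians near 0. Among 50 large subunit genes 24 were above 0 and 26 below, with a median of -0.0087. Among 26 small subunit genes 10 were above 0 and 16 below, with a median of -0.011. The genes were also split by whether the protein takes the place of a bacterial ribosomal protein in the assembled ribosome. The 30 large subunit genes whose proteins do had a median of -0.018 and the 20 whose proteins do not 0.013, and the corresponding medians of the small subunit were -0.011 over 16 genes and -0.035 over 10. By place in the large subunit, the median was 0.04 over 5 genes of the central protuberance, -0.06 over 8 genes of the exit tunnel and -0.0088 over 3 genes near the peptidyl transferase centre. None of these genes passed the test.

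The pair with an unadjusted p under 0.05 are related in sequence to the same bacterial protein, S18, which in mammals has 3 mitochondrial forms. Mrps18c takes the place of S18 in the small subunit. Mrps18b, in the small subunit, and Mrps18a, despite its symbol in the large subunit, sit at places with no bacterial protein and were counted so in the split above. Mrps18c lies at chr5:100946493-100955417, Mrps18a at chr17:46421909-46446812 and Mrps18b at chr17:36221266-36227606 (GRCm39). The 120 bases before each annotated start are printed side by side as 3 genes with the same bacterial relative, each 5′ to 3′ on its gene's strand, at chr17:46421789-46421908 (plus strand) for Mrps18a, chr17:36227491-36227610 (minus strand) for Mrps18b and chr5:100946373-100946492 (plus strand) for Mrps18c. Capitals mark the NRF1 core in Mrps18b and the ETS core, read on the other strand, in Mrps18c. They cover only the 120 bases printed. In the wider window used above, Mrps18a also held an ETS core, a YY1 core and a CCAAT box, and Mrps18b a CCAAT box.
Mrps18a: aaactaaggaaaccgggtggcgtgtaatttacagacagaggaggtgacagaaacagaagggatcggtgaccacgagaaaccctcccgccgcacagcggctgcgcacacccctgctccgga
Mrps18b: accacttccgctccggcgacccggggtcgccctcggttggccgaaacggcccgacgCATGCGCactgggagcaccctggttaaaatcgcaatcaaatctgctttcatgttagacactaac
Mrps18c: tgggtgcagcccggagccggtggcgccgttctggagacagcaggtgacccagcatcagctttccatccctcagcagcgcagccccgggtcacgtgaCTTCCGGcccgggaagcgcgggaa

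Mrps18c had 29.5, 22.1, 24.5, 25.5 and 24.2 CPM in 5XFAD, in the order of the replicate numbers, and 18.5, 16.7, 18.1, 13.3 and 22.4 CPM in 5XFAD;Neu cKO. The groups overlapped through 5XFAD;Neu cKO replicate 5 alone, which lay just above 5XFAD replicate 2. The means were 25.1 ± 2.72 and 17.8 ± 3.29 CPM (SD, n = 5 each), a log2 fold change of -0.50 (SE 0.18) with a 95% interval of -0.86 to -0.13. The unadjusted p was 0.00908, the edgeR adjusted p 0.436 and the exact two-sided permutation p 0.0159. Its unadjusted p stayed under 0.05 in each of 10 fits that left out 1 library, with log2 fold changes of -0.59 to -0.41, and its adjusted p did not pass in any of them.

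Mrps18a went the other way, with 12.4, 14.3, 14.0, 13.2 and 15.7 CPM in 5XFAD and 22.1, 27.0, 15.8, 13.3 and 18.2 CPM in 5XFAD;Neu cKO. Of the 5XFAD;Neu cKO libraries, replicate 4 lay within the range of the 5XFAD libraries and the others above it. The means were 13.9 ± 1.24 and 19.3 ± 5.41 CPM, and the log2 fold change was 0.47 (SE 0.21, 95% interval 0.04 to 0.89, edgeR adjusted p = 0.555). The exact two-sided permutation p was 0.0476. With 1 library left out, its unadjusted p was under 0.05 in 6 of 10 fits and reached 0.170 without 5XFAD;Neu cKO replicate 2.

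Mrps18b, whose transcript end has a near-identical copy, was too sparse to compare. It had 5, 3, 6, 23 and 7 reads in 5XFAD and 2, 10, 7, 8 and 5 in 5XFAD;Neu cKO. All but 5XFAD replicate 4 lay between 2 and 10 reads. The log2 fold change was -0.68 (SE 0.80, edgeR adjusted p = 0.929), and it was 0.04 without 5XFAD replicate 4.

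**Figure D4:**
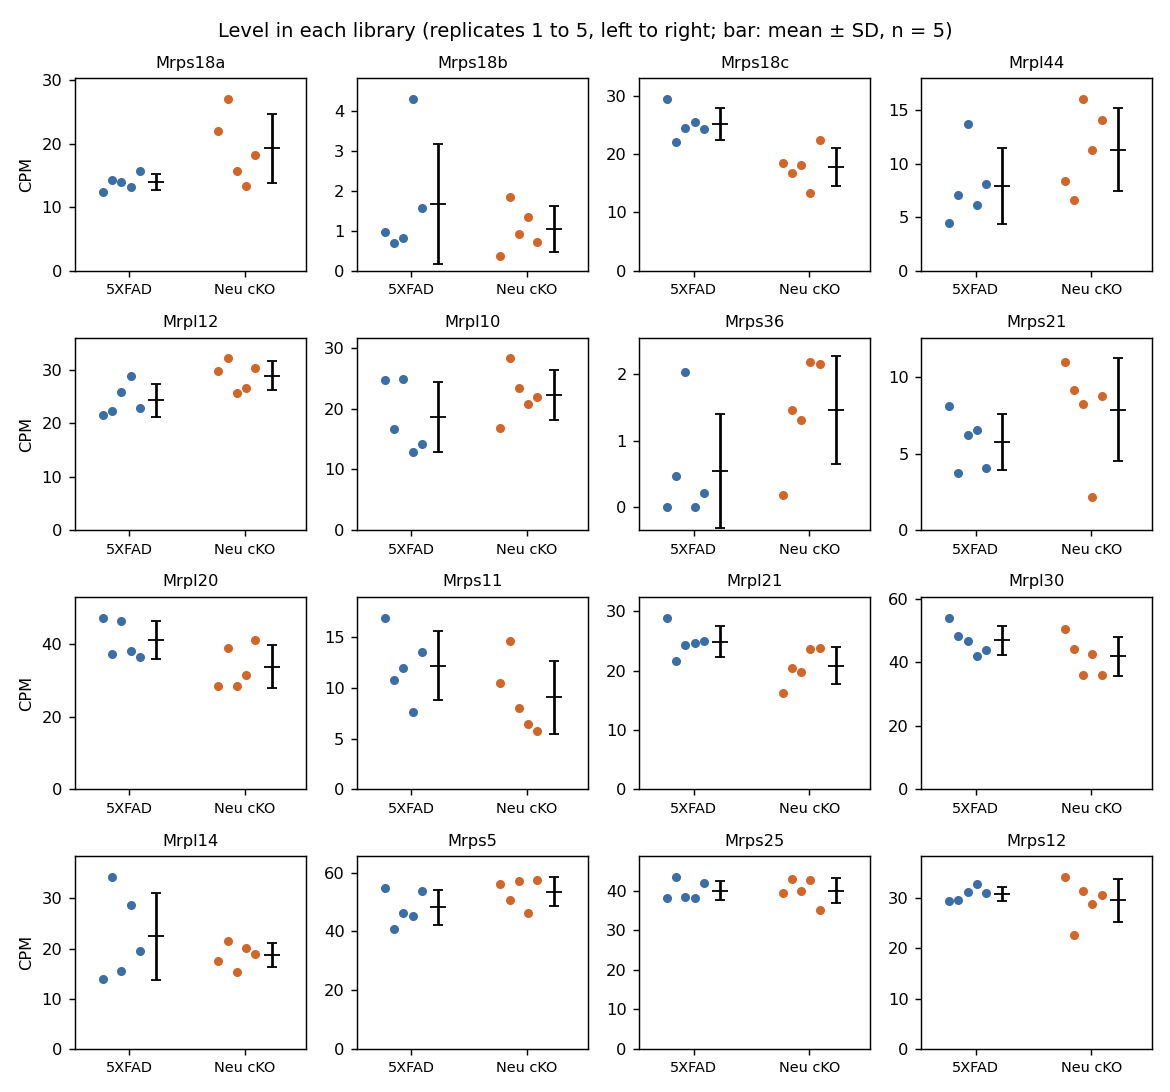
Level in CPM of 16 genes in 5XFAD (blue) and 5XFAD;Neu cKO (orange) libraries, replicates 1 to 5 from left to right, with the mean ± SD (n = 5) beside each group in black. The groups overlap in every panel, and Mrps18c and Mrps18a have the smallest unadjusted p.

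Among large subunit genes with positive estimates, Mrpl12 and Mrpl10 form the stalk that recruits translation factors. Mrpl12 had 21.5, 22.3, 25.9, 28.9 and 22.9 CPM in 5XFAD and 29.9, 32.2, 25.7, 26.6 and 30.3 CPM in 5XFAD;Neu cKO. Of the 5XFAD;Neu cKO libraries, 3 lay above all those labelled 5XFAD. The log2 fold change was 0.25 (SE 0.16, edgeR adjusted p = 0.798, exact permutation p = 0.0397). Mrpl10, which anchors Mrpl12, had 24.8, 16.7, 24.9, 12.9 and 14.1 CPM in 5XFAD and 16.8, 28.3, 23.4, 20.9 and 22.0 CPM in 5XFAD;Neu cKO, with a log2 fold change of 0.25 (SE 0.20, edgeR adjusted p = 0.870, exact permutation p = 0.262). It was 0.14 without 5XFAD replicate 4, 0.16 without 5XFAD replicate 5, 0.15 without 5XFAD;Neu cKO replicate 2 and 0.38 without 5XFAD replicate 3. Mrpl10 showed a wider spread among the 5XFAD libraries than Mrpl12, with SDs of 5.79 and 3.07 CPM. Mrpl11, at the base of the stalk, had a log2 fold change of 0.08.

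Mrpl44, a protein with a fold like ribonuclease III, had 4.46, 7.04, 13.7, 6.15 and 8.08 CPM in 5XFAD and 8.41, 6.62, 16.0, 11.3 and 14.1 CPM in 5XFAD;Neu cKO. The groups overlapped over most of their range, and the log2 fold change was 0.51 (SE 0.29, edgeR adjusted p = 0.732, exact permutation p = 0.167). Without 5XFAD replicate 3 it was 0.82, with an unadjusted p of 0.0123 in edgeR. Mrpl58, a peptidyl-tRNA hydrolase that became a ribosomal subunit, stood at 21.0 ± 3.34 and 21.7 ± 4.55 CPM. Mrps30, which sits in the large subunit despite its symbol, stood at 14.9 ± 2.96 and 16.2 ± 1.71 CPM. Neither difference was larger than the spread between libraries.

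Of the genes with negative estimates, Mrpl20, Mrpl21, Mrpl30 and Mrpl14 are large subunit proteins with bacterial relatives. Mrpl20 had 47.3, 37.3, 46.3, 38.2 and 36.4 CPM in 5XFAD and 28.6, 39.0, 28.6, 31.6 and 41.2 CPM in 5XFAD;Neu cKO. Of the 5XFAD;Neu cKO libraries, 3 lay below every 5XFAD library and the other two within their range, and the log2 fold change was -0.28 (SE 0.15, edgeR adjusted p = 0.655, exact permutation p = 0.0794). Mrpl21 had 28.9, 21.6, 24.3, 24.6 and 24.9 CPM in 5XFAD and 16.3, 20.4, 19.8, 23.6 and 23.8 CPM in 5XFAD;Neu cKO, a log2 fold change of -0.26 (SE 0.18, edgeR adjusted p = 0.815, exact permutation p = 0.0476). Mrpl30 had 54.1, 48.3, 46.6, 42.1 and 44.0 CPM against 50.7, 44.1, 36.0, 42.7 and 35.9 CPM, with a log2 fold change of -0.17 (SE 0.13, exact permutation p = 0.175). In Mrpl14 the 5XFAD libraries spread from 14.0 to 34.3 CPM and enclosed all 5XFAD;Neu cKO libraries (15.4 to 21.5 CPM).

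Mrpl45, which holds the ribosome to the inner membrane, was among the steadiest genes, at 29.0 ± 3.00 CPM in 5XFAD and 26.5 ± 1.93 CPM in 5XFAD;Neu cKO (log2 fold change -0.13). Its coefficient of variation between libraries within groups was 9.09%, and only Mrps25 had a smaller one, of 7.11%, among the 74 genes with a mean of at least 5 CPM. Mrpl41, found only in mitochondria, stood at 24.4 ± 3.27 and 21.7 ± 4.53 CPM. Mrpl48, of the central protuberance, had a log2 fold change of 0.04, and Mrpl23, near the exit of the tunnel, of 0.0018 at levels from 0.898 to 7.75 CPM.

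In the small subunit, the gene with the highest level also showed no difference beyond its spread. Mrps5 had 54.8, 40.8, 46.2, 45.1 and 53.9 CPM in 5XFAD and 56.1, 50.6, 57.0, 46.1 and 57.6 CPM in 5XFAD;Neu cKO, a log2 fold change of 0.15. Mrps12, the decoding protein whose bacterial relative is a site of streptomycin resistance, stood at 30.8 ± 1.38 and 29.6 ± 4.32 CPM (log2 fold change -0.06). Mrps25 stood at 40.0 ± 2.49 and 39.9 ± 3.15 CPM.

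Mrps11, which starts 30 bases from Mrpl46, had 16.9, 10.8, 11.95, 7.64 and 13.5 CPM in 5XFAD and 10.5, 14.5, 8.01, 6.39 and 5.75 CPM in 5XFAD;Neu cKO. Its log2 fold change was -0.43 (SE 0.28, edgeR adjusted p = 0.779, exact permutation p = 0.175), and that of Mrpl46 was -0.04. Without 5XFAD replicate 1 that of Mrps11 was -0.29, and without 5XFAD;Neu cKO replicate 2 it was -0.67. Among the 13 head-to-head pairs that the 14 genes form, both genes had the same sign in 5, and no partner passed the test. The partner with the smallest p was Fau, a cytosolic ribosomal protein gene beside Mrpl49, at a log2 fold change of -0.36 (edgeR adjusted p = 0.231), while Mrpl49 was at 0.18.

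Among the 74 genes with a mean of at least 5 CPM, Mrps21 and Mrps28 varied most between libraries. Mrps28 had 10.9, 1.17, 5.57, 8.95 and 4.94 CPM in 5XFAD and 6.73, 7.73, 7.22, 7.91 and 7.90 CPM in 5XFAD;Neu cKO, so that the 5XFAD libraries lay on both sides of a narrow 5XFAD;Neu cKO range. Mrps21 stood at 5.74 ± 1.83 and 7.89 ± 3.35 CPM. The coefficient of variation within groups was 38.9% for Mrps28 and 39.7% for Mrps21. Mrps36, a subunit of the 2-oxoglutarate dehydrogenase complex rather than of the ribosome, had 0, 2, 15, 0 and 1 reads in 5XFAD and 1, 8, 10, 13 and 15 in 5XFAD;Neu cKO. The groups overlapped, the log2 fold change of 1.31 had a standard error of 0.98, and the 95% interval ran from -0.65 to 3.28. The log2 fold change was 3.00 without 5XFAD replicate 3 (unadjusted p = 0.0228 in edgeR) and 2.10 with the replicate number as a block, and it passed after adjustment in neither.

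The genes did not rise and fall together from library to library. Over the 10 libraries, after removing group means, the median pairwise correlation was 0.018 among the 74 genes with a mean of at least 5 CPM, and 0.388 among 81 cytosolic ribosomal protein genes treated alike, which have deeper counts. All pairs share the same libraries, and counting noise takes a larger part in the lower counts of the mitochondrial ribosomal genes.

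The cytosolic ribosomal protein genes were the closest comparison. Of 87 tested, 69 were below 0 and 18 above, with a median of -0.13, 24 (27.6%, against 7.95% of all genes) had an unadjusted p under 0.05. After adjustment 1 passed in edgeR and 5 in DESeq2, where 0.218% and 0.379% of all genes passed. Their summed level was 14332 ± 1437 CPM in 5XFAD and 12725 ± 714 CPM in 5XFAD;Neu cKO, and the groups overlapped. The difference between the 2 kinds of ribosomal genes was not tested.

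The ribosomal RNAs of the mitochondrial ribosome, read through oligo(dT) priming, fell where neuronal Idol deletion is labelled, with a call that depended on the fit. mt-Rnr1, of the small subunit, stood at 51132.7, 57482.6, 49552.1, 52725.0 and 44999.8 CPM in 5XFAD and 50393.5, 36713.7, 38236.6, 40570.2 and 37948.1 CPM in 5XFAD;Neu cKO. Only 5XFAD;Neu cKO replicate 1 lay within the 5XFAD range. The log2 fold change was -0.33 (SE 0.06, edgeR adjusted p = 0.000621, exact permutation p = 0.0238), and the adjusted p was 0.299 in a robust fit. mt-Rnr2, of the large subunit, had a log2 fold change of -0.27 (edgeR adjusted p = 0.0361, exact permutation p = 0.0873), with an adjusted p of 0.410 in DESeq2, 0.226 with filterByExpr and 0.682 in the robust fit. Leaving out 1 library ended its call without 5XFAD replicate 1, 2 or 4 or 5XFAD;Neu cKO replicate 2, 3, 4 or 5, with adjusted p of up to 0.236. In the same libraries the protein genes of the small and large subunit had the medians of -0.011 and -0.0087 given above, and the difference between RNA and protein genes was not tested.

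Apart from the ribosomal RNAs, the listed genes of mitochondrial translation and transcription gave no call. The 5 subunits with other symbols had log2 fold changes of 0.05 (Dap3), -0.13 (Chchd1), 0.27 (Aurkaip1), -0.12 (Ptcd3) and -0.21 (Gadd45gip1). Of 27 assembly factors, 13 were above 0 and 14 below and 0 passed; the smallest p values were those of Mettl17, at -0.69 (edgeR adjusted p = 0.480), and Mrm2, a methyltransferase of the large ribosomal RNA, at -1.05 (edgeR adjusted p = 0.587). Of 18 translation factors tested, 13 were above 0 and 5 below with a median of 0.12 and 0 passed, with Guf1, an elongation factor, at 0.42 and Mtres1, a rescue factor, at -0.46. Of 17 aminoacyl-tRNA synthetases 11 were above 0 and 6 below, and of 13 genes of mitochondrial transcription and its regulators 7 and 6, with 0 passing in both lists. Polrmt, the mitochondrial RNA polymerase, was at 0.28 and Gabpb1, a subunit of an ETS factor, at 0.37, neither past the test.

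Reads on genes numbered from 4320504 to 7466192 in 5XFAD libraries and from 5148499 to 7246659 in 5XFAD;Neu cKO libraries. Markers of the labelled tissue were present, with summed levels of 10 excitatory neuron markers from 2283 to 2756 CPM in 5XFAD and from 2305 to 2619 CPM in 5XFAD;Neu cKO. Markers of glia were mostly below 0, where 0.218% of all genes passed in either direction. All 12 microglia markers were below 0 (median -0.59, 6 past the test, summed level 474 to 696 CPM in 5XFAD and 323 to 411 in 5XFAD;Neu cKO), and these sums did not overlap. All 10 oligodendrocyte markers were below 0 (median -0.28, 1 past the test), with overlapping sums of 2118 to 3106 and 1875 to 2949 CPM. Of 10 astrocyte markers 9 were below 0 (median -0.12, 1 past the test), with overlapping sums of 4417 to 5160 and 4276 to 4907 CPM. None of the 77 genes passed, and the part of cell composition in their estimates was not tested.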

How the data were processed

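The authors trimmed QuantSeq 3′ reads with bbduk, aligned them with STAR to GRCm39 and assigned them to Ensembl genes by htseq-count; the submitters' processing notes name STAR 2.7.3a and HTSeq 0.9.1. They deposited whole-number counts per gene with no normalization. Symbols, biotypes and starts were taken from GENCODE of the same build. Genes with a total over 10 were kept (19268), and counts were compared with edgeR 4.0.16 in R 4.3.3 (quasi-likelihood, TMM, condition only), with Benjamini-Hochberg adjustment over all genes and a threshold of 0.05. CPM use TMM library sizes. Exact two-sided permutation tests of mean log2 CPM (prior count 2) ran over 252 relabellings, with a smallest p of 0.0079. Transcript ends were aligned with minimap2 2.31. Subunits, places and gene lists were written from general knowledge. The members and lists were chosen with earlier results of these data known. Named genes are those with the smallest unadjusted p (6 in each direction), the highest 5 and lowest 3 levels, the 2 largest and 2 smallest coefficients of variation, and genes picked by role. Mrpl40, Mrpl46, Mrpl49, Mrpl11, Mrpl43, Mrpl53, Fau, Sars2 and Twnk are named outside this rule, after their values were seen. Alternatives were DESeq2 1.42.0, its size factors, filterByExpr, no filter, a robust fit, no mitochondrial genes, a replicate block, each library left out, subunits by symbol and a mean of at least 5 CPM. The steps were tested on simulated data.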

Additional observations from a re-analysis of the deposited data

Results flagged for a closer look

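Among 84 groups of 5 values examined, 6 held a library set apart from the other 4 by more than 0.71 of the group's range, where chance gives about 1 in 20. Mrps18b stood at 4.29 CPM in 5XFAD replicate 4, with the next library at 1.57 CPM. Mrps36 stood at 2.04 CPM in 5XFAD replicate 3, with the next at 0.469 CPM. The summed level of the small subunit genes was 486.8 CPM in 5XFAD;Neu cKO replicate 4, below the next lowest of 512.7 CPM. mt-Rnr1 stood at 50394 CPM in 5XFAD;Neu cKO replicate 1, with the next at 40570 CPM. Aurkaip1, a small subunit protein without an Mrps symbol, stood at 33.6 CPM in 5XFAD;Neu cKO replicate 4, below the next lowest of 39.8 CPM. Gabpb1 stood at 6.25 CPM in 5XFAD replicate 3, with the next at 4.93 CPM.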

How the results depend on the processing

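None of the 77 genes passed under any of 7 settings with all libraries or 10 fits leaving out 1 library. A gene without an adjusted p in a setting, as Mrps18c and Mrps18a in DESeq2, could not pass there. The 19 alternatives for each subunit's median moved it by less than the spread between libraries (SD 0.077 on the log2 scale for each). Both medians changed sign in some fits. That of the large subunit ran from -0.0418 without 5XFAD;Neu cKO replicate 1 to 0.0209 without 5XFAD;Neu cKO replicate 5. That of the small subunit ran from -0.0403 without 5XFAD;Neu cKO replicate 1 to 0.0151 without 5XFAD replicate 4. Over all genes, 42 passed, and 73 did with DESeq2, 103 with no filter and 112 with the replicate block; leaving out 1 library gave from 26 (without 5XFAD replicate 2) to 72 (without 5XFAD;Neu cKO replicate 1), and 27 without 5XFAD;Neu cKO replicate 4 or 5. The count of 2 members at an unadjusted p under 0.05 was 1 with the replicate block; it was 1 without 5XFAD replicate 1 or 4 or 5XFAD;Neu cKO replicate 1, and 4 without 5XFAD replicate 3 or 5XFAD;Neu cKO replicate 2. The replicate numbers did not pair the libraries: same-numbered deviations correlated at 0.0119, -0.0392, 0.0397, -0.0604 and -0.0418 over 9595 genes. Of 23 named members, 16 kept their sign throughout. The others, all near 0 or sparse, changed sign when 1 library was left out, with log2 fold changes of -0.25 to 0.31 for Mrpl23, -0.0704 to 0.102 for Mrpl48, -0.0301 to 0.129 for Mrpl58, -0.116 to 0.0206 for Mrps12, -0.97 to 0.0363 for Mrps18b, -0.0284 to 0.0419 for Mrps25 and -0.014 to 0.518 for Mrps28; so did Dap3 (-0.0518 to 0.159) and Ptcd3 (-0.258 to 0.0464). The cause was not tested. Leaving out 1 library moved others by over 1.5 times with no change of sign: Mrpl14 (-0.383 without 5XFAD replicate 1, -0.0559 without 2, -0.144 without 4), Mrpl41 (-0.0837 without 5XFAD replicate 1, -0.0605 and -0.268 without 5XFAD;Neu cKO replicates 4 and 5), Mrpl45 (-0.0832 without 5XFAD replicate 4), Mrps5 (0.0991 without 5XFAD replicate 2), Mrps21 (0.684 without 5XFAD;Neu cKO replicate 4) and Mrps30 (0.225 and 0.0205 without 5XFAD replicates 1 and 3, 0.081 without 5XFAD;Neu cKO replicate 4). The 4 genes whose 95% interval exceeded a 2-fold change were all under 10 CPM.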
